A study of Drosophila melanogaster with 12 samples.

Results

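The cytochrome P450 (Cyp) genes of Drosophila melanogaster were described in RNA of whole male larvae, all of the wild-type strain Canton-S. Members were taken by name: every array probe set that mapped to a single gene whose current symbol began with Cyp and a digit, without Cyp18a1. The name rule found 82 of the 11982 genes that had such a probe set. Of these, 80 were P450 genes, namely 22 of the Cyp4 family, 23 of Cyp6, 5 of Cyp9, 6 of Cyp12, 4 of Cyp28 and 20 of other numbered families. The remaining 2, Cyp1 and Cyp40, carry the prefix but encode cyclophilins, which are prolyl isomerases, and are given apart at the end. Against 82 P450 symbols of the same kind in the RefSeq gene table (Release 6 plus ISO1 MT), Cyp12d1-p and Cyp9f3 had no single-gene probe set and were not analysed here. P450 genes with other kinds of name, among them the Halloween genes of ecdysone synthesis, did not fall under the rule.

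The 4 groups combined stage and food, with 3 biological replicates and 1 array each. Food contained either 0.15 M sucrose (control) or 1 M sucrose (high sugar). The wandering third-instar larvae, which had stopped eating, had lived on their food from hatching, whereas all mid-third-instar (mid-L3) larvae were reared on the control recipe and moved for the final 12 h to a fresh portion of it or to high sugar. Stage and length of exposure therefore cannot be told apart when the diet effects of wandering and mid-L3 larvae are compared. Neither the number of larvae per sample nor whether replicates came from separate cultures is stated in the sources used here, so p-values measure the spread between these samples. In RNA of a whole animal, fewer cells of a type and less RNA per cell cannot be told apart. Values are deposited intensities on a linear scale, read per probe set. They were compared between groups for the same gene and never between genes.

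P450 enzymes hold a haem group that binds oxygen, and they insert an oxygen atom into fatty acids, steroids and foreign chemicals. Those of the endoplasmic reticulum take electrons from P450 reductase or cytochrome b5, and those of the mitochondria from a ferredoxin. In insects, many Cyp6, Cyp9, Cyp28 (the CYP3 clan) and Cyp4 genes lie in tandem copies and respond to plant compounds, drugs and insecticides, mainly in the midgut, the Malpighian tubules and the fat body. Cyp12 enzymes belong to the mitochondrial clan.

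The median intensity of an array lay between 62.2 and 65.0 in mid-L3 larvae and between 79.1 and 82.4 in wandering larvae, and the 12 arrays limit the precision of every value. Defining markers matched the stages. The summed intensity of 5 salivary glue (Sgs) probe sets was 132 to 4053 on mid-L3 arrays and 49886 to 51722 on wandering arrays. Mid-L3 high sugar array 2 had the glue sum of 4053, against 181 and 259.9 on the other arrays of its group. Without wandering high sugar array 2, the genes called for diet in wandering larvae rose from 534 to 1419 of 8387, so counts without these arrays are given below. Of the 80 P450 genes, 54 passed the filter on dim genes (67.5%, against 70.0% of all genes) and were tested. The other 26 had mean intensities of 5.78 to 76.7. Among the tested, Cyp4ae1, Cyp4g15 and Cyp6a22 passed only through the group where each was highest. Counts of passing genes are therefore given as a description, followed by those over all 80 without the filter.

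**Figure D1:**
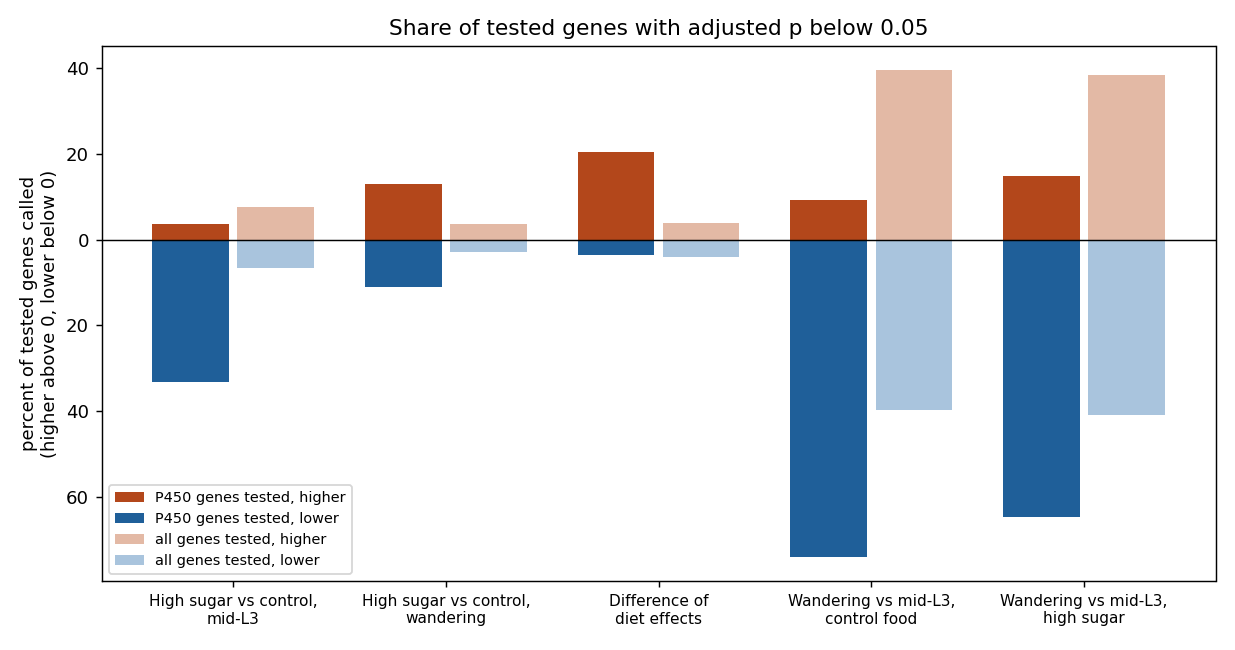
Percent of tested genes with adjusted p below 0.05 in each comparison, higher drawn above 0 and lower below 0, for the 54 P450 genes (dark bars) and all 8387 genes tested (light bars). Of the P450 genes, 33.3% were lower after 12 h of high sugar, against 6.53% of all genes.

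Mid-L3 larvae showed the response of P450 transcripts to 12 h of high sugar. Many were lower: 18 of the 54 tested genes fell and 2 rose, while 6.53% of all 8387 genes tested were called lower and 7.54% higher, 14.1% in either direction (limma, adjusted p under 0.05). The median log2 change was -0.30 over the P450 genes and 0.01 over all genes tested. Without the filter, 19 of 80 fell and 2 rose, against 4.69% and 5.19% of 11982 genes. Of the genes that fell, 7 were Cyp6 genes, 6 were Cyp4, 2 were Cyp28, and 1 each was a Cyp9, a Cyp12 and a Cyp309 gene. Without mid-L3 high sugar array 2, 18 fell and 2 rose, against 4.94% and 5.2% of all genes.

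Cyp6g1, the enzyme whose overexpression gives resistance to DDT and neonicotinoids, read 3400, 2200 and 3460 on control food and 753, 1597 and 935 after high sugar, a log2 change of -1.32 (adjusted p = 0.00148, SE 0.22). All high sugar arrays lay below all control arrays, and array 2 was the highest of its group. Without that array the change was -1.58. Cyp6a14 read 2595, 2938 and 2403 and then 787, 1203 and 936, a change of -1.29 (adjusted p = 0.00065, SE 0.19). The groups did not overlap here either. Cyp6a21 read 3877, 3499 and 3638 and then 1656, 1555 and 1564, a change of -1.07 (adjusted p = 0.00431, SE 0.21), with less spread within groups than between them. Cyp6v1, Cyp6d4 and Cyp6t1 also fell, with log2 changes of -1.14 (adjusted p = 6.11e-05), -0.81 (adjusted p = 0.000245) and -0.98 (adjusted p = 0.022). Cyp6d5 fell from 9938 ± 273 to 8044 ± 446 (SD, n = 3, as for every ± below), a change of -0.40 (adjusted p = 0.0325) in limma. The other 11 tested Cyp6 genes passed in neither direction. Among them were Cyp6a2 (-0.38, adjusted p = 0.527) and Cyp6a8 (-0.31, adjusted p = 0.582), both inducible by drugs, and Cyp6w1 (-0.46, adjusted p = 0.54). With only the 6 mid-L3 arrays in the fit, Cyp6a8 and Cyp6w1 were called lower (adjusted p = 0.00994 and 0.0076).

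In the Cyp4 family, whose better known members hydroxylate fatty acids, Cyp4s3 had the largest decrease of the tested P450 genes in mid-L3 larvae. It read 486, 319 and 459 on control food and 54.0, 143 and 52.1 on high sugar, a log2 change of -2.29 (adjusted p = 0.000148, SE 0.28). The groups did not overlap, but high sugar array 2 stood well above its 2 fellows, and without it the change was -2.73. Cyp4d14 read 2260, 2186 and 2318 and then 881, 687 and 687, a change of -1.41 (adjusted p = 0.00117, SE 0.23). Cyp4ac1 read 1437, 1188 and 1550 and then 547, 593 and 525, a change of -1.15 (adjusted p = 0.00279, SE 0.21). Both pairs of groups were separate. Cyp4d2, Cyp4ae1 and Cyp4e2 fell with log2 changes of -0.70, -0.69 and -0.51. Cyp4c3 rose: it read 178, 229 and 200.4 on control food and 374, 297 and 484 on high sugar, a change of 0.86 (adjusted p = 0.00285, SE 0.16), with no overlap. Cyp4g1, the oenocyte enzyme that makes the cuticular hydrocarbons, was at 2174 ± 94.7 and 2366 ± 142 and did not pass (log2 change 0.15, adjusted p = 0.433).

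Cyp28d1, which in flies has been linked to nicotine tolerance, read 1577, 1314 and 1652 on control food and 662, 589 and 719 on high sugar, a change of -1.05 (adjusted p = 0.000521, SE 0.15). Cyp28d2 read 365, 371 and 373 and then 133, 150.3 and 162, a change of -1.21 (adjusted p = 5.27e-06, SE 0.10). The high sugar arrays of both genes lay below all control arrays. Of the Cyp9 genes, Cyp9b2 fell from 3291 ± 665 to 1355 ± 504, a change of -1.15 (adjusted p = 0.00477), and the other 4 did not pass. Of the Cyp12 genes, Cyp12a4, whose overexpression gives resistance to the insecticide lufenuron, read 4020, 3151 and 3706 and then 2102, 1886 and 2104, a change of -0.73 (adjusted p = 0.00176, SE 0.12), and the other 5 did not pass. Among these, Cyp12d1-d (-0.68, adjusted p = 0.0686) was called lower with only the 6 mid-L3 arrays in the fit (adjusted p = 0.0163). Cyp304a1, of the CYP2 clan, rose. It read 374, 288 and 393 on control food and 787, 1212 and 773 on high sugar, a change of 1.29 (adjusted p = 0.000836, SE 0.20), and the groups did not overlap. Cyp309a1 fell from 877 ± 61.9 to 575 ± 57.0 (log2 change -0.51, adjusted p = 0.0123).

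Of these 20 calls, 16 held under every alternative in which the gene was tested. With the 50th percentile as filter, 14 of the 20 were called and the others were not tested. The calls of 4 genes ended when 1 array was left out. Cyp6t1 did so without mid-L3 control array 1 or 3 or high sugar array 1 or 3 (adjusted p = 0.0699 to 0.096), and Cyp4d2 without the same arrays (0.0594 to 0.0908). Cyp6d5 did so without any 1 of the 6 (0.0604 to 0.121), and Cyp309a1 without control array 1 (0.053). Markers of other tissues moved in the same comparison. The summed intensity of 5 midgut marker probe sets was 5750 to 6648 on control food and 10472 to 11088 on high sugar, although 1 of the 4 tested (mex1) passed. Most of that rise lay in Mal-A1, at 3255 ± 435 and 7222 ± 250, which did not pass (adjusted p = 0.066). The sum of 5 fat body markers was 32948 to 36644 and 25950 to 32280, and 2 of 5 (Fbp2 and Mtp) passed as lower. The sum of 7 Malpighian tubule markers was 1514 to 1672 and 1494 to 1784, with none called. The sum of 8 testis markers was 608 to 641 and 736 to 805, and 1 of 6 tested (mia) passed as higher. Their part in the P450 result was not tested.

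**Figure D2:**
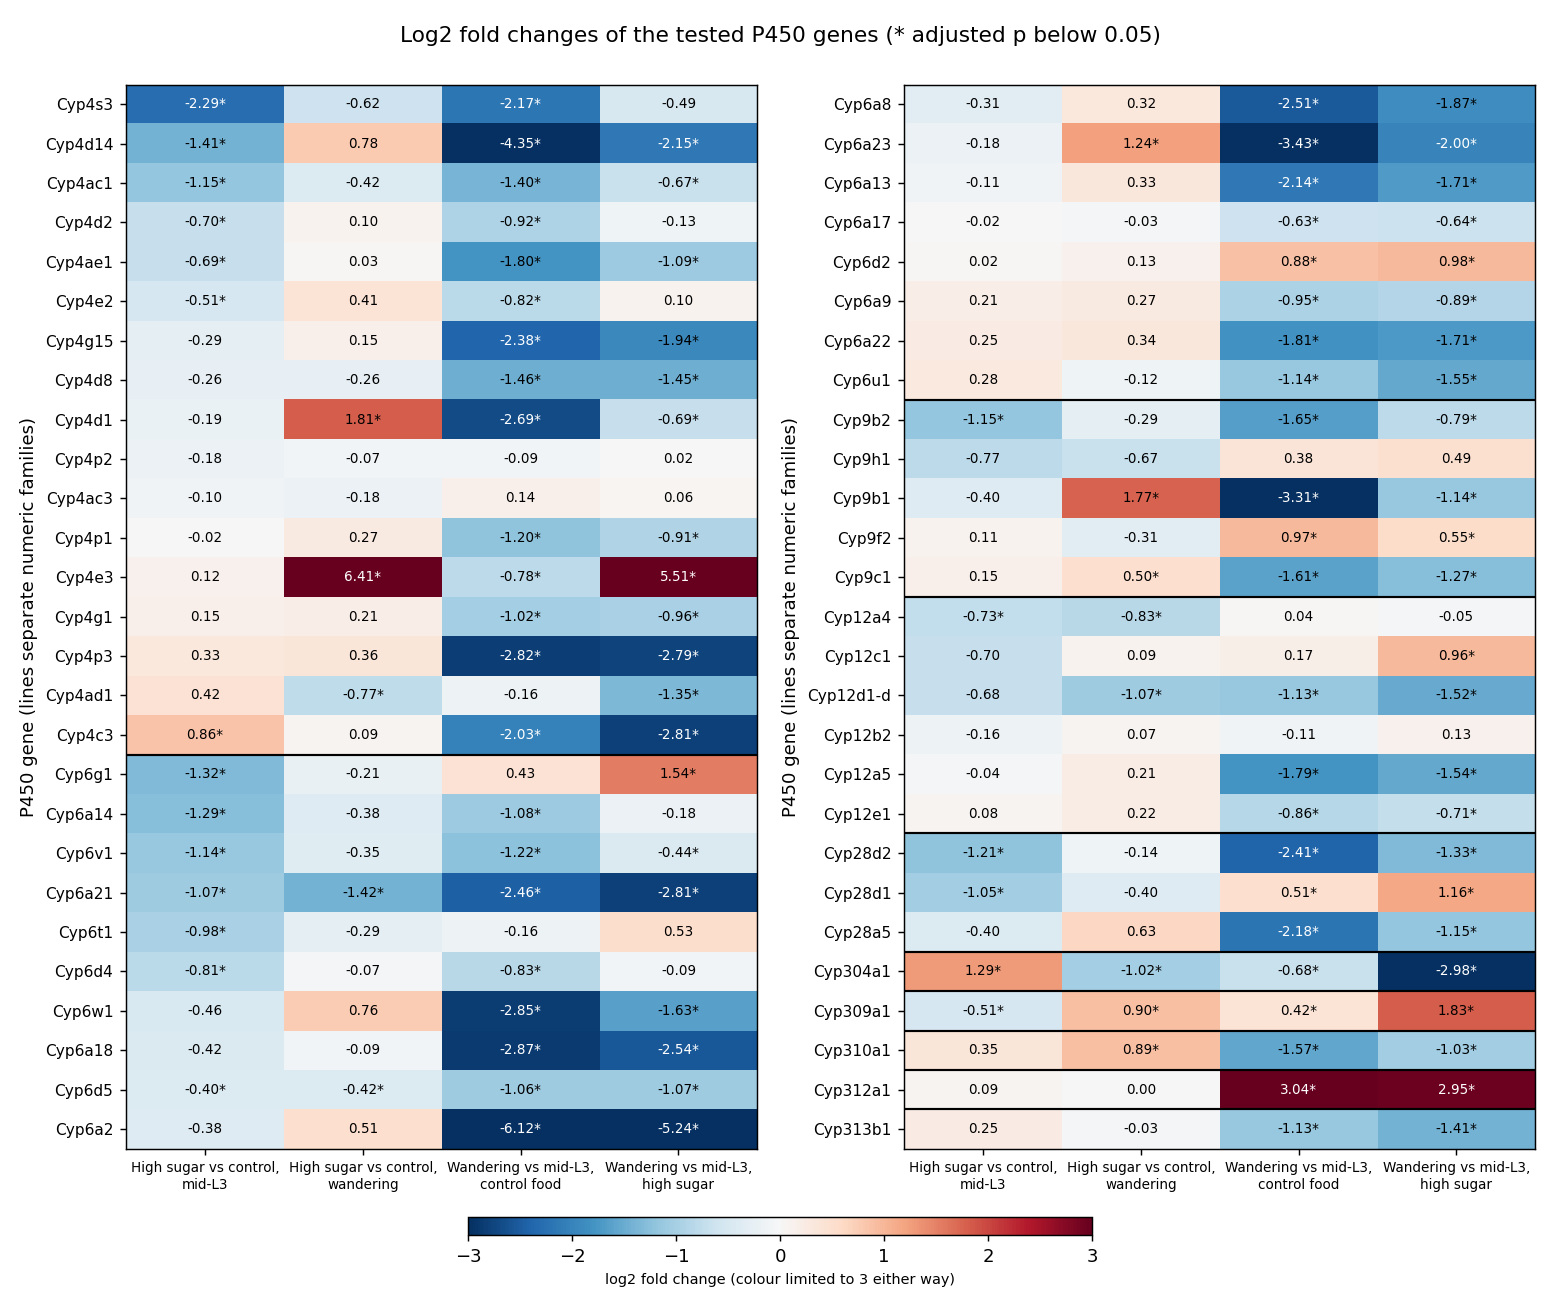
Log2 fold changes of the 54 tested P450 genes in 4 comparisons, ordered by family and by the change in mid-L3 larvae. Stars mark adjusted p below 0.05, blue is lower and red is higher, and the colour stops at 3. Decreases from mid-L3 to wandering larvae fill both stage columns, while the diet columns differ from each other.

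In wandering larvae the comparison asked what differed after a larval life on high sugar. Here 7 P450 genes were higher and 6 lower of 54 tested, while 3.57% of all genes tested were called higher and 2.8% lower (6.37% in either direction). The median log2 change was 0.05 over the P450 genes and -0.02 over all genes. Without the filter the counts were 7 higher and 5 lower of 80, against 2.3% and 1.87% of all genes. Without wandering control array 3, 4 were higher and 4 lower, against 1.63% and 1.71% of all genes. Without high sugar array 2, 12 were higher and 6 lower, against 7.93% and 8.99%. With only the 6 wandering arrays in the fit, 4 were higher and 5 lower, against 1.28% and 1.34%.

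Cyp4e3 had the largest change. This gene, inducible by drugs and linked to permethrin tolerance in the tubule, read 43.1, 37.1 and 52.0 on control food and 5045, 2663 and 5418 on high sugar. In mid-L3 larvae it read 69.3, 64.7 and 79.4 on control food and 72.5, 85.3 and 81.6 after 12 h of high sugar. So it was high on the 3 arrays of wandering larvae reared on sugar and on no other array. The wandering controls lay below the median of their arrays, so no exact fold is given. The log2 change in wandering larvae was 6.41 (adjusted p = 6.20e-09, SE 0.22), and in mid-L3 larvae 0.12 (adjusted p = 0.789). Cyp4d1 read 1041, 691 and 662 and then 2587, 2610 and 2274, a change of 1.81 (adjusted p = 1.37e-05, SE 0.15). Every sugar-reared array lay above every control array. Cyp4ad1 fell, from 685 ± 109 to 417 ± 62.6, a change of -0.77 (adjusted p = 0.00384). The other 14 tested Cyp4 genes did not pass. Among these were Cyp4d14 (0.78, adjusted p = 0.0635), Cyp4e2 (0.41, adjusted p = 0.0543) and Cyp4g1 (0.21, adjusted p = 0.295).

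In the CYP3 clan, Cyp9b1 read 53.1, 52.2 and 28.4 on control food and 214, 129 and 271 on high sugar, a log2 change of 1.77 (adjusted p = 0.000339, SE 0.22). The groups did not overlap, and the control arrays were dim, below the array median. Cyp9c1 rose by 0.50 (adjusted p = 0.0416), Cyp6a23 by 1.24 (adjusted p = 0.0292) and Cyp310a1 by 0.89 (adjusted p = 0.0275). Cyp309a1 read 1036, 1437 and 1180 and then 2097, 2179 and 2015, a change of 0.90 (adjusted p = 0.000559, SE 0.12), with all sugar-reared arrays above the controls. Cyp6a21 fell again. It read 746, 673 and 504 and then 369, 177 and 220.4, a change of -1.42 (adjusted p = 0.0012, SE 0.21), and the groups did not overlap. Cyp6d5 was at 3948 ± 433 and 3141 ± 509, a change of -0.42 (adjusted p = 0.047), and its groups overlapped.

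Of the mitochondrial Cyp12 enzymes, Cyp12a4 read 3274, 3280 and 2709 on control food and 2104, 1781 and 1603 on high sugar, a change of -0.83 (adjusted p = 0.00155, SE 0.12). Its groups were separate in wandering as in mid-L3 larvae. Cyp12d1-d, a DDT-inducible gene, fell from 201 ± 14.4 to 95.7 ± 41.0, a change of -1.07 (adjusted p = 0.0154). It has the near-identical neighbour Cyp12d1-p, whose transcripts its probe set may also read, so its value is uncertain. Cyp304a1 read 299.7, 217 and 255 and then 163, 122 and 96.3, a change of -1.02 (adjusted p = 0.00851, SE 0.20), and the groups did not overlap.

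Of the 13 calls, 7 held under every alternative: Cyp4e3, Cyp4d1, Cyp9b1, Cyp309a1, Cyp6a21, Cyp12a4 and Cyp304a1. Leaving out 1 array ended 5 others. Cyp6a23 was lost without control array 3 or high sugar array 1 or 3 (adjusted p = 0.0927 to 0.125), and Cyp310a1 without those or control array 1 (0.0738 to 0.12). Cyp9c1 was lost without control array 1 or 3 or high sugar array 1 or 3 (0.0781 to 0.135), Cyp6d5 without any array but high sugar array 1 (0.0735 to 0.182), and Cyp12d1-d without control array 3 (0.0659). Cyp4ad1 lost its call with the replicate number as a block in the 6 wandering arrays (0.0794), an alternative chosen after seeing the data. The summed midgut markers were 5817 to 7572 on control food and 6504 to 7777 on high sugar, and none of 4 tested passed. The fat body sums were 39014 to 42905 and 40174 to 41969, with apolpp called higher. The tubule sums were 1424 to 1573 and 1590 to 1767, with Drip called higher among 6 tested. The sums of 5 haemocyte markers were 2733 to 3731 and 3409 to 4613, with NimC1 called higher. The part of these in the P450 result was not tested.

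**Figure D3:**
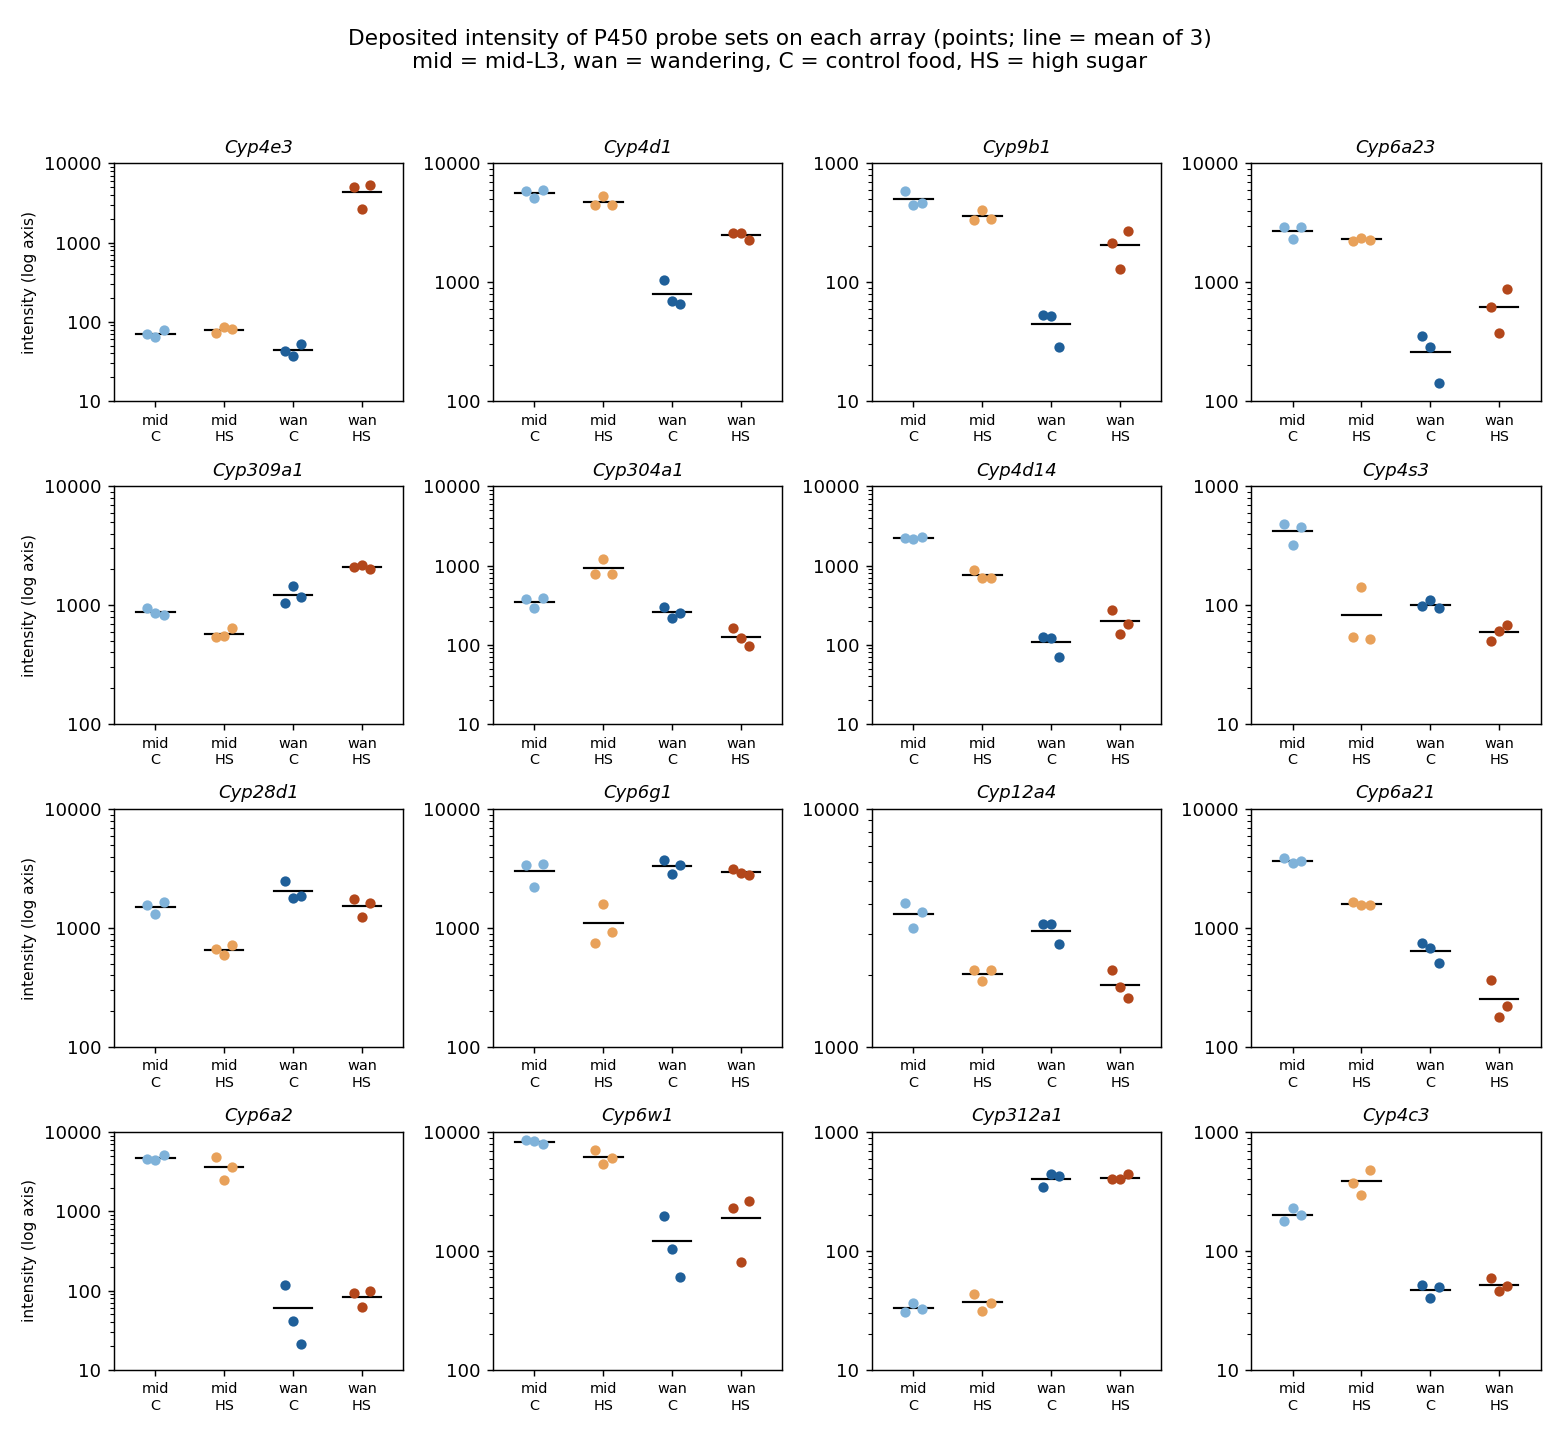
Deposited intensity (log axes) of 16 P450 genes on each of the 12 arrays, with a line at each group's mean of 3. Cyp4e3 stands between 2663 and 5418 on the arrays of wandering larvae reared on high sugar and below 100 on the other 9.

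The diet effects at the stages were then compared with each other, as the effect in wandering larvae minus that in mid-L3 larvae. Of 54 P450 genes, 11 had a higher and 2 a lower effect in wandering larvae, while 3.78% of all genes tested were called higher and 3.97% lower (7.75% in either direction). Without the filter the counts were 10 and 2 of 80, against 2.65% and 2.65%. The median difference was 0.39 over the P450 genes and -0.03 over all genes. Of the 13, 4 had a diet effect called in wandering larvae only (Cyp4e3, Cyp4d1, Cyp9b1 and Cyp4ad1), 7 in mid-L3 larvae only (Cyp28d2, Cyp4d14, Cyp4s3, Cyp6g1, Cyp4e2, Cyp6v1 and Cyp6d4) and 2 in both. Those 2 turned direction. Cyp309a1 fell in mid-L3 larvae and rose in wandering larvae, with a difference of 1.41 (adjusted p = 0.000239, SE 0.17). Cyp304a1 rose in mid-L3 larvae and fell in wandering larvae, with a difference of -2.30 (adjusted p = 0.000262, SE 0.28).

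Cyp4e3 had the largest difference, 6.29 (adjusted p = 3.85e-07, SE 0.32). Among the increases Cyp4d14 came next, at 2.19 (adjusted p = 0.00106, SE 0.32): it fell after 12 h of sugar, while its sugar-reared wandering arrays (276, 138 and 181) lay above their controls (127, 123 and 70.3) without a call. Cyp9b1 differed by 2.17 and Cyp4d1 by 2.00. The calls of Cyp4s3, Cyp6g1 and Cyp6v1 depended on single arrays. Cyp4s3 lost its call without mid-L3 control array 1 or 3, mid-L3 high sugar array 1 or 3 or wandering control array 3 (adjusted p = 0.052 to 0.0602). Cyp6v1 lost it without mid-L3 control array 3 (0.054). Cyp6g1, at 0.0492, lost it without any array but the second of either mid-L3 group (0.0523 to 0.121). Without wandering high sugar array 2, 19 genes had a higher and 3 a lower effect in wandering larvae, against 6.84% and 8.31% of all genes. Of the tested P450 genes, 26 were called in neither diet comparison nor in their difference.

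The 2 diet comparisons share no array. Both called 5 genes, which are 38.5% of the 13 called in wandering larvae and 25.0% of the 20 called in mid-L3 larvae. Over all genes tested, both called 196 genes, or 36.7% and 16.6% of those lists. Cyp6a21, Cyp12a4 and Cyp6d5 were lower on high sugar in both, and none was higher in both. Of these, Cyp6d5 lost its call at each stage when single arrays were left out, as given above. For Cyp6a21 the difference between the effects was -0.35 (SE 0.29, adjusted p = 0.533) and for Cyp12a4 -0.10 (SE 0.18, adjusted p = 0.802), neither past the threshold.

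**Figure D4:**
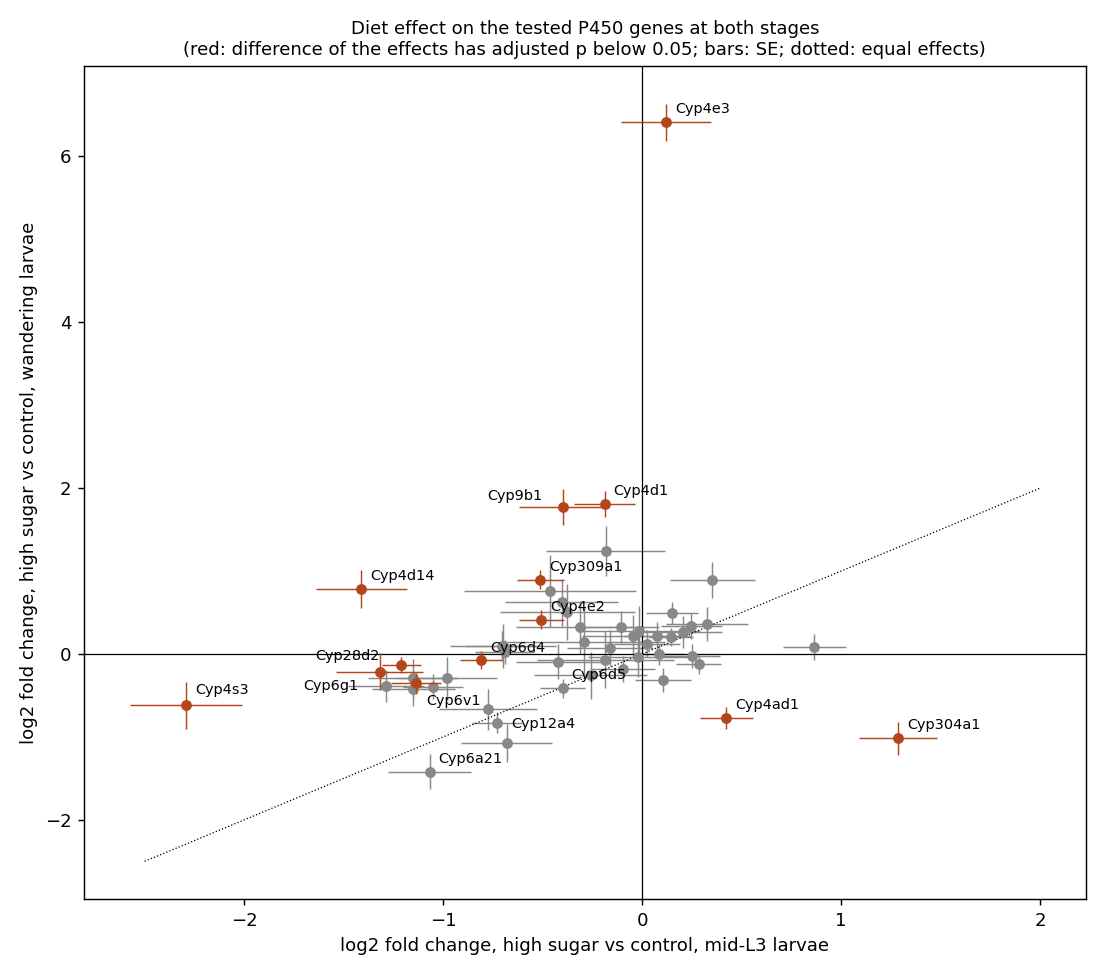
Log2 change on high sugar in mid-L3 larvae (horizontal) and in wandering larvae (vertical) for the 54 tested P450 genes, with SE bars. Red genes differ between the stages at adjusted p below 0.05, and named genes are those or the ones called at both stages. Cyp4e3 lies at 0.12 and 6.41, and Cyp6a21 and Cyp12a4 lie near the dotted line of equal effects.

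On control food, P450 transcripts were mostly lower in wandering than in feeding mid-L3 larvae. Of 54 tested genes, 40 fell and 5 rose, while 39.8% of all genes tested were called lower and 39.5% higher (79.2% in either direction). The median log2 change was -1.13 over the P450 genes and -0.01 over all genes, and 32 fell by at least 1 on the log2 scale against 1 that rose by as much. Without the filter, 56 of 80 fell and 7 rose, against 34.3% and 35.6% of all genes. With the values as deposited, without quantile normalization, the median of all genes tested moved to 0.18. The P450 median then was -1.01, with 36 lower and 7 higher of 52 tested.

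Cyp6a2, an enzyme that metabolizes insecticides and is inducible by drugs, read 4614, 4498 and 5220 in mid-L3 and 118, 41.5 and 21.4 in wandering larvae, a log2 change of -6.12 (adjusted p = 3.47e-09, SE 0.34). The wandering arrays spread widely among themselves, with 2 of 3 below the array median, so no exact fold is given. Cyp6w1, linked to DDT tolerance, read 8646, 8375 and 7958 and then 1983, 1035 and 602, and Cyp6a8, a fatty acid hydroxylase inducible by caffeine, read 6098, 6697 and 6528 and then 1419, 1125 and 632. Neither gene's stages overlapped, with log2 changes of -2.85 (adjusted p = 4.68e-05) and -2.51 (adjusted p = 9.46e-06). Cyp6a23 and Cyp6a18 fell with changes of -3.43 and -2.87, and Cyp6d5 went from 9938 ± 273 to 3948 ± 433, a change of -1.06. Of 18 Cyp6 genes tested, 15 fell and 1 rose, namely Cyp6d2 (0.88, adjusted p = 0.000333). Cyp6g1 did not pass (0.43, adjusted p = 0.0895), with 3400, 2200 and 3460 in mid-L3 and 3731, 2872 and 3387 in wandering larvae. With the replicate number as a block in the 6 control arrays it passed (adjusted p = 0.000895), and 46 genes were called in place of 45.

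Of 17 Cyp4 genes tested, 14 fell and none rose. Cyp4d14 read 2260, 2186 and 2318 in mid-L3 and 127, 123 and 70.3 in wandering larvae, a change of -4.35 (adjusted p = 1.96e-09, SE 0.23). The changes of Cyp4d1, Cyp4p3 and Cyp4g15 were -2.69, -2.82 and -2.38, of which Cyp4g15 passed the filter only through the mid-L3 control group. Cyp4e2 went from 5745 ± 175 to 2638 ± 412, a change of -0.82. Cyp4g1 fell by 1.02 on the log2 scale, from 2174 ± 94.7 to 1033 ± 89.3. Of 5 Cyp9 genes, 3 fell, led by Cyp9b1 (-3.31, adjusted p = 1.75e-08), and Cyp9f2 rose (0.97, adjusted p = 3.19e-05). Of 6 Cyp12 genes, 3 fell (Cyp12a5, Cyp12d1-d and Cyp12e1), while Cyp12a4 was at 3626 ± 440.4 and 3088 ± 328 and did not pass. Cyp28d2 and Cyp28a5 fell with changes of -2.41 and -2.18, and Cyp28d1 rose with 0.51.

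Cyp312a1 went the other way from most. It read 30.6, 36.3 and 32.8 in mid-L3 and 347, 449 and 426 in wandering larvae on control food, and 43.6, 31.4 and 36.6 and then 403, 402 and 442 on high sugar. The stages did not overlap on either food, with log2 changes of 3.04 (adjusted p = 2.23e-10, SE 0.12) and 2.95 (adjusted p = 3.18e-10, SE 0.12), and it did not pass for diet at either stage (0.09, adjusted p = 0.711 in mid-L3 and -0.0044, adjusted p = 0.991 in wandering larvae). Only Cyp4e3, on high sugar, rose more between the stages among the tested P450 genes.

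On high sugar, 35 of the 54 genes were lower and 8 higher in wandering larvae, while 40.9% of all genes tested were called lower and 38.3% higher (again 79.2% in either direction). Without the filter the counts were 49 and 11 of 80, against 34.8% and 34.7%. The median was -0.94 over the P450 genes and -0.05 over all genes. With the values as deposited these medians were -0.73 and 0.17, and the share of higher calls among all calls moved from 48.4% to 58.8% over all genes and from 18.6% to 25.6% over the P450 genes. This comparison shares its arrays with those above, and the food differed in length of exposure between the stages. Besides Cyp4e3 (5.51, adjusted p = 2.74e-10) and Cyp312a1, the higher genes were Cyp309a1 (1.83), Cyp6g1 (1.54), Cyp28d1 (1.16), Cyp6d2 (0.98), Cyp12c1 (0.96) and Cyp9f2 (0.55). Cyp6a2 fell from 3635 ± 1159 to 84.1 ± 19.9, a change of -5.24, and Cyp304a1 from 924 ± 249.7 to 127 ± 33.5, a change of -2.98.

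Tissue markers also moved between the stages. The summed intensity of 3 muscle probe sets was 15511 to 16625 in mid-L3 and 1457 to 3064 in wandering larvae over both foods, and all 3 fell on each food. All 5 glue genes rose on each food. On control food, the midgut sum was 5750 to 6648 in mid-L3 and 5817 to 7572 in wandering larvae, where 1 of 4 tested rose and 2 fell. On high sugar it was 10472 to 11088 and then 6504 to 7777, without overlap, and again 1 rose and 2 fell. There Mal-A1 went from a mean of 7222 to 1250, and Mur29B from 767 to 4042. On control food the fat body sum was 32948 to 36644 and then 39014 to 42905, where 2 of 5 tested rose and 2 fell. There Fbp1 went from a mean of 35.6 to 6098, and Mtp from 2053 to 849. The tubule sum on control food was 1514 to 1672 and then 1424 to 1573, where 1 of 6 tested rose and 3 fell. The testis sum over 8 probe sets on that food was 608 to 641 in mid-L3 and 895 to 1047 in wandering larvae, where 3 of 6 tested rose and 1 fell. The part of the muscle, midgut, fat body, tubule and testis markers in the fall of P450 transcripts was not tested. With the values as deposited, Cyp304a1 and Cyp6a17 were not called on control food, and Cyp4ac1, Cyp4p1, Cyp6a17 and Cyp6v1 not on high sugar. In that setting calls as higher in wandering larvae were gained by Cyp9h1 on both foods and by Cyp4ac3 on control food. Cyp6t1 gained one on high sugar (0.80, adjusted p = 0.00704). Cyp6a17 also lost its stage call on both foods, and Cyp4p1 on high sugar, when single arrays were left out. For Cyp6a17 these were mid-L3 array 1 or wandering array 1 or 3 on control food (adjusted p = 0.0568 to 0.153), and mid-L3 array 2 or wandering array 2 or 3 on high sugar (0.0552 to 0.144). For Cyp4p1 they were mid-L3 array 3 or wandering array 2 (0.0837 and 0.078).

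In the RefSeq gene order, 42 of the 80 genes lay next to another P450 gene, in 15 groups, and 9 groups had at least 2 tested members. The group of 9 genes from Cyp6a22 to Cyp317a1 had 6 tested members, and all 6 were called lower in wandering than in mid-L3 larvae on both foods, where 39.8% (control food) and 40.9% (high sugar) of all genes tested were. Of these, Cyp6a22 passed the filter only through the mid-L3 high sugar group, where it was highest. Cyp6a17 lost its call on both foods with the values as deposited (adjusted p = 0.274 and 0.273) and when single arrays were left out. The log2 changes on control food ran from -0.63 for Cyp6a17, which affects temperature preference in adult flies, to -3.43 for Cyp6a23. Diet split the same 6: Cyp6a21 fell on high sugar at both stages, Cyp6a23 rose in wandering larvae, and Cyp6a22, Cyp6a17, Cyp6a9 and Cyp6a8 passed at neither stage. In the group of Cyp4d14, Cyp4d2 and Cyp4ae1, the calls were lower for all 3 after 12 h of high sugar and between the stages on control food, but Cyp4ae1 passed the filter only through the mid-L3 control group, where it was highest.

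Other neighbours differed in their calls. Cyp28d1 and Cyp28d2 both fell after 12 h of sugar (-1.05 and -1.21) but moved in opposite directions between the stages on control food (0.51 and -2.41). Cyp4ad1 and Cyp4e2 had differences between the diet effects of opposite sign (-1.19, adjusted p = 0.00175 and 0.92, adjusted p = 0.00413). Cyp9b1 rose and Cyp9b2 (-0.29, adjusted p = 0.481) did not pass in sugar-reared wandering larvae, whereas after 12 h of sugar Cyp9b2 fell and Cyp9b1 (-0.40, adjusted p = 0.27) did not pass. Cyp12a4 fell on high sugar at both stages, and its neighbour Cyp12a5 passed at neither (-0.04 and 0.21). Of Cyp4p1, Cyp4p2 and Cyp4p3, none passed for diet. Members of a group can be close copies, so their probe sets may read each other's transcripts in part.

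**Figure D5:**
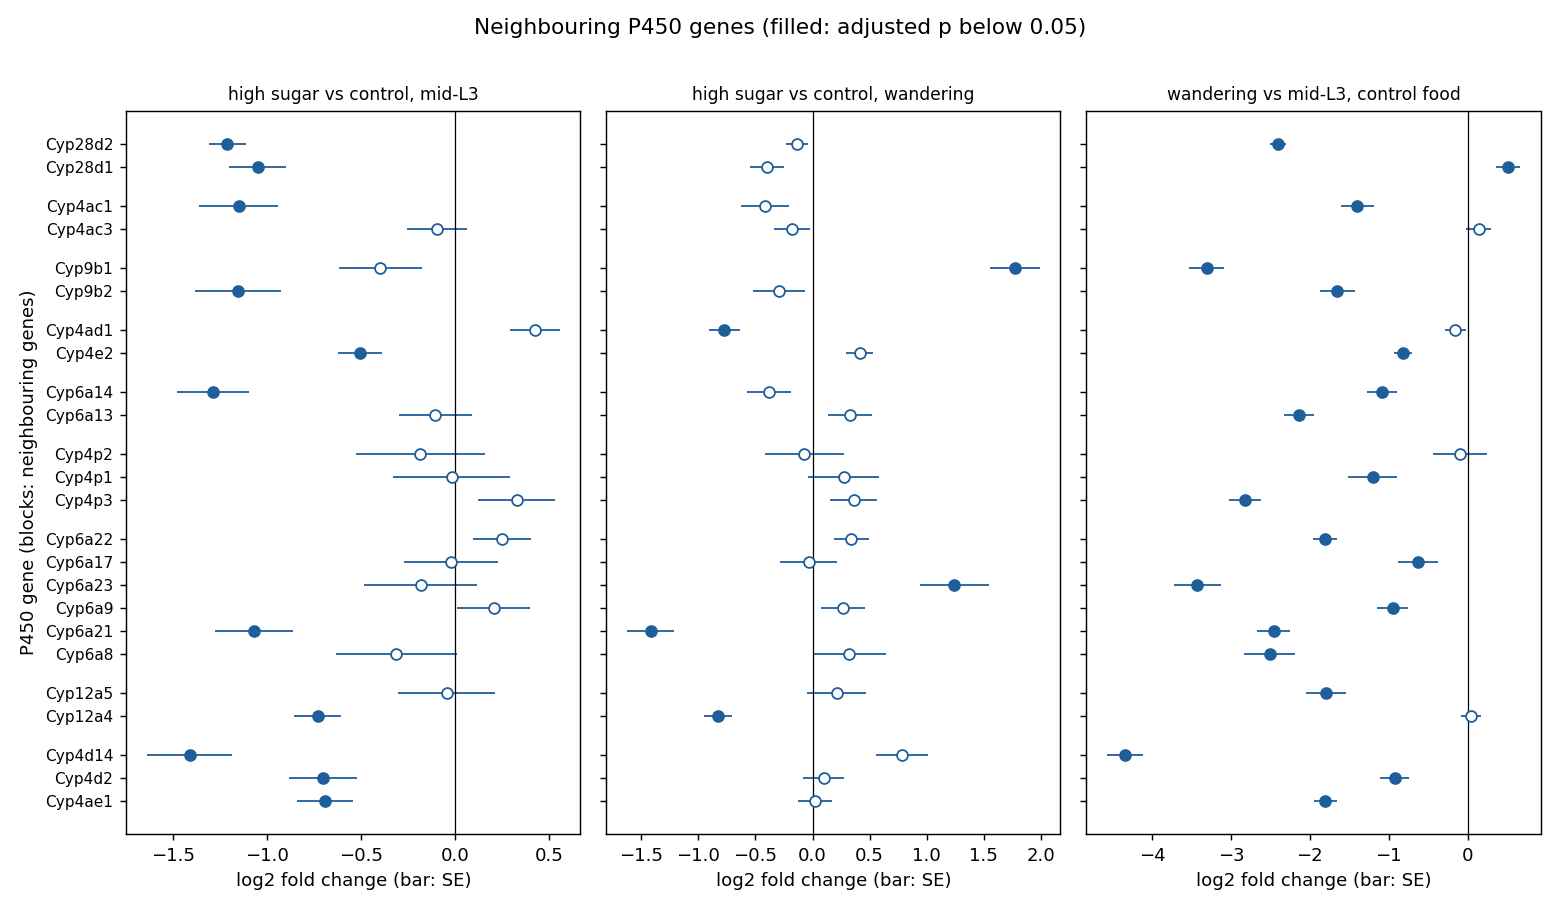
Log2 changes with SE of the tested P450 genes that lie next to another one, in blocks of neighbours, for 3 comparisons. Filled points have adjusted p below 0.05. The 6 Cyp6a genes in the block from Cyp6a22 to Cyp6a8 all lie below 0 between the stages, and lie on both sides of 0 for diet.

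Genes that may serve the P450 enzymes were taken from lists. The list of electron transfer partners had 4 tested genes. Of these, Cyt-b5-r is there by its name as a relative of cytochrome b5, and whether it passes electrons to P450 enzymes was not tested. Cyt-b5-r rose in sugar-reared wandering larvae from 418 ± 73.3 to 1845 ± 638, a log2 change of 2.24 (adjusted p = 3.56e-05). Its difference between the diet effects was 2.84 (adjusted p = 0.000103), and after 12 h of sugar its change was -0.60 (adjusted p = 0.082). Cytochrome b5 (Cyt-b5) and the ferredoxins Fdx1 and Fdx2 passed for diet at neither stage. All 4 fell between the stages on control food, as did 39.8% of all genes, with Cyt-b5-r at -3.64 (adjusted p = 5.54e-09) and Cyt-b5 at -1.33 (adjusted p = 2.01e-09). P450 reductase (Cpr) was not analysed here. Of 7 genes of haem synthesis and breakdown, none passed for diet and 6 fell between the stages on each food (39.8% and 40.9% of all genes did), led by Alas, the first enzyme of haem synthesis (-1.94, adjusted p = 3.53e-09 on control food).

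Of 11 tested regulators that have been tied to detoxification or sugar responses, 4 were higher after 12 h of sugar and 3 in sugar-reared wandering larvae, against 7.54% and 3.57% of all genes. The list held genes of the sugar response (Mondo and sugarbabe, below) and was chosen with earlier results of these data known. These counts are therefore a description only. The nuclear receptor Hr96, which controls responses to foreign compounds and lipid metabolism, rose from 1096 ± 19.5 to 1857 ± 143 in mid-L3 larvae (0.73, adjusted p = 0.000618) and from 705 ± 92.7 to 963 ± 140.1 in wandering larvae (0.48, adjusted p = 0.0198). The sugar sensor Mondo rose by 0.63 and 0.93, and its target sugarbabe (sug) by 2.35 and 2.19, in mid-L3 and wandering larvae. The oxidative stress regulator cnc (-0.20, adjusted p = 0.139 and -0.05, adjusted p = 0.766) and its inhibitor Keap1 (0.06, adjusted p = 0.805 and -0.04, adjusted p = 0.897) passed at neither stage, and cnc's partner maf-S rose after 12 h of sugar (0.31, adjusted p = 0.0259).

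UDP-glycosyltransferases (Ugt), which conjugate compounds that P450 enzymes have oxidized, had 22 tested genes. After 12 h of sugar, 2 rose and 4 fell (7.54% and 6.53% of all genes tested did), among them Ugt37A2 (-1.35, adjusted p = 0.000123), Ugt302C1 (-0.93, adjusted p = 0.000296) and Ugt35B1 (0.94, adjusted p = 0.00541). In wandering larvae none rose and 1 fell (Ugt301D1), against 3.57% and 2.8% of all genes. Between the stages 15 fell and 4 rose on control food, against 39.8% and 39.5% of all genes, with a median log2 change of -1.21. Of 4 tested epoxide hydrolase and esterase genes, all 4 fell between the stages on each food, where 39.8% and 40.9% of all genes did. For diet, Jhe rose after 12 h (0.58, adjusted p = 0.0456) and alpha-Est2 in wandering larvae (1.84, adjusted p = 0.0448). Of 6 tested genes of cuticular hydrocarbon and very long fatty acid synthesis, the desaturase Desat1 rose on sugar at both stages (0.69, adjusted p = 0.00624 and 1.11, adjusted p = 0.000431), ACC rose (1.07, adjusted p = 9.98e-05) and FarO fell (-0.58, adjusted p = 0.0174) in mid-L3 larvae.

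The 26 dim P450 genes were fitted without the filter. Among them Cyp301a1, which acts in cuticle formation, fell after 12 h of sugar (-0.71, adjusted p = 0.0172), and Cyp313a3 rose in sugar-reared wandering larvae (0.81, adjusted p = 0.0419). Cyp6a20, which affects aggression in adult males, fell between the stages (-2.48, adjusted p = 1.05e-07 on control food), as did Cyp49a1, of the mitochondrial clan (-1.59, adjusted p = 4.93e-07). Cyp4ac2 rose (1.07, adjusted p = 0.000104). Of the tested genes, Cyp12b2, Cyp4ac3, Cyp4p2 and Cyp9h1 were called in none of the 5 comparisons in the main model. With the values as deposited, Cyp9h1 was called higher in wandering larvae on control food (0.69, adjusted p = 0.0152) and on high sugar (0.74, adjusted p = 0.0101). Cyp4ac3 was then called higher on control food (0.40, adjusted p = 0.0401). With only the 6 mid-L3 arrays in the fit, Cyp9h1 was called lower on high sugar (-0.77, adjusted p = 0.0178). The cyclophilins passed for diet at neither stage. Cyp40 was higher in wandering larvae on control food, with 288, 271 and 293 in mid-L3 and 438, 558 and 477 in wandering larvae (0.52, adjusted p = 0.000421), and on high sugar (0.50, adjusted p = 0.000603). Cyp1 did not pass between the stages on either food (0.04, adjusted p = 0.396 and 0.10, adjusted p = 0.0507), but with the values as deposited it was called lower on control food (-0.16, adjusted p = 0.0246). On high sugar it was called higher with a constant 5 times larger, with the 50th percentile as filter and without mid-L3 high sugar array 2 (adjusted p = 0.0224 to 0.0489).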

How the data were processed

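RNA of whole larvae was labelled with biotin and hybridized to Affymetrix arrays from 2 ug of total RNA, per the labels' protocols. The authors deposited linear intensity values, 1 for each probe set of an array, up to 15822. The software that summarized and normalized them is not given in the sources used here.

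Of 18952 probe sets, 183 controls were left out. The platform table gave 1 gene to 13647 probe sets and several or none to 402, while 4720 were not listed and carry no name here. For 13544, the symbol was brought up to date through the Entrez identifier. Where a gene had several probe sets (1094 genes), only that of highest mean intensity was kept, leaving 11982 genes. A constant of 12.8 (the 20th percentile over all arrays) was added to each intensity before taking log2 and quantile normalizing. Changes are on this scale, which understates those of dim genes. Quantile normalization also shifted values between the stages, whose array medians differed. Stage changes can therefore differ from those of the printed intensities, for bright genes too. Genes below the 30th percentile of the mean were not tested, which left 8387.

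All 12 arrays entered 1 model of the 4 group means in limma 3.58.1 under R 4.3.3 (eBayes with trend, residual df 8, median prior df 4.41). Within a comparison, the Benjamini-Hochberg adjustment covered all genes tested, and adjusted p under 0.05 was called. The fit was tested on simulated data. An exact permutation of 3 arrays against 3 cannot give a p under 0.1, so none was used. Tables and figures were made with Python 3.11.15, pandas 2.3.3 and matplotlib 3.10.9.

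The labels do not say that a replicate number marks a shared batch. The deviations from the group means of same-numbered arrays correlated at 0.121 to 0.179 in all 3 pairs of mid-L3 and wandering control arrays. Between other groups, differently numbered arrays reached higher values, such as 0.389 for wandering control array 3 and wandering high sugar array 2. The main model paired no arrays, and the number entered as a block only in alternatives. No other pair of groups passed 0.1 in every pair of same-numbered arrays (for diet, -0.253 to 0.262 in wandering and -0.264 to -0.058 in mid-L3 larvae).

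The members, the gene and marker lists, the tests and the alternatives were chosen with earlier results of these data known. By rule, the named genes were the 10 largest increases and decreases called in each comparison, up to 3 called genes per family, members of tandem groups and a fixed list of better known P450 genes, and the text names part of these. No sequence is shown.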

Additional observations from a re-analysis of the deposited data

Results flagged for a closer look

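For 13 P450 genes the diet effect differed between wandering and mid-L3 larvae in the test of the difference itself (limma, adjusted p under 0.05, as wandering minus mid-L3 on the log2 scale), while 7.75% of all genes tested did. Higher in wandering larvae were the effects on Cyp4e3 by 6.29, Cyp4d14 by 2.19, Cyp9b1 by 2.17, Cyp4d1 by 2.00, Cyp4s3 by 1.68, Cyp309a1 by 1.41 and Cyp6g1 by 1.11. The same held for Cyp28d2 by 1.07, Cyp4e2 by 0.92, Cyp6v1 by 0.78 and Cyp6d4 by 0.74. The difference was -2.30 for Cyp304a1 and -1.19 for Cyp4ad1. Length of exposure and stage cannot be told apart in these values.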

How the results depend on the processing

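No P450 gene called in any of the 5 comparisons changed direction under any alternative tried. Calls held under every alternative for 7 of 13 genes for diet in wandering larvae, 16 of 20 for diet in mid-L3 larvae, 10 of 13 for the difference of the diet effects, 42 of 45 for stage on control food and 39 of 43 for stage on high sugar. With only the 6 arrays compared in the fit, 31 P450 genes were called for diet in mid-L3 larvae in place of 20, all 20 among them. The share over all genes went from 14.1% to 21.3%. In wandering larvae the same setting gave 9 in place of 13, while the share over all genes went from 6.37% to 2.61%. There Cyp6a23, Cyp310a1, Cyp9c1, Cyp6d5 and Cyp12d1-d lost their calls (adjusted p = 0.0649 to 0.17), and Cyp4s3 was called lower (adjusted p = 0.0411). Leaving out 1 array gave 8 to 18 genes for diet in wandering larvae, 17 to 20 in mid-L3 larvae, 10 to 22 for the difference, 44 to 46 for stage on control food and 42 to 44 on high sugar. The lowest count in wandering larvae, 8, came without control array 3, and the highest count for the difference, 22, without wandering high sugar array 2. The causes were not tested.

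With the replicate number as a block in all 12 arrays, 14 genes were called for diet in wandering larvae, 20 in mid-L3 larvae, 14 for the difference, 45 for stage on control food and 43 on high sugar. A block in only the 6 arrays compared was added after seeing the data and gave 7, 26, 46 and 43, with no value for the difference. Whether a number marks a shared batch between food groups is not stated in the labels. Without the filter, 63 P450 genes were called for stage on control food and 60 on high sugar, of 80 fitted. Other settings were the values as deposited, averaged probe sets, an added constant of 1 or 5 times larger, and the 50th percentile as filter. The limits are 3 arrays per group, whole-animal RNA, and probe sets that may not separate close copies.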

Other observations

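A probe set shared by Cyp12d1-d and Cyp12d1-p, which entered no comparison, had mean intensities of 1863 ± 283 on mid-L3 control arrays, 1001 ± 99.9 after 12 h of high sugar, 1112 ± 310.3 in wandering larvae on control food and 449 ± 223 in those reared on high sugar (SD, n = 3). On the wandering arrays the highest high sugar value, 627, lay below the lowest control value, 865. On the mid-L3 arrays these values were 1093 and 1538, also without overlap. A probe set shared by shn and Cyp6v1 had means of 636 ± 124, 413 ± 56.6, 956 ± 74.4 and 908 ± 98.5 in the same order, so it was higher in wandering than in mid-L3 larvae. On control food the single-gene probe set of Cyp6v1 was lower in wandering larvae, with means of 273 and then 137. Its means on high sugar were 114 and then 107, and those arrays overlapped. No test was run on either shared probe set.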
